A study of Mus musculus with 4 samples.

Results

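The genes described here encode the contractile machinery of smooth muscle and of myofibroblasts, the contractile state that fibroblasts and mesenchymal progenitors take on in culture, in wounds and under tension. The named genes were Acta2, Actg2, Tagln, Cnn1, Cnn2, Myl9, Mylk, Tpm1, Tpm2 and Lmod1, chosen by name, and 9 of the 10 had an amplicon among the 23930 of the deposited table. Tagln was not analysed here. All 9 measured genes passed the filter on low values used for testing (at least 1 RPM in at least 2 libraries), as did 11638 genes in all. RPM counts the reads of an amplicon after every library is scaled to the same total.

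In these cells, actin filaments built from Acta2 and Actg2 slide past myosin. Calcium and calmodulin switch on the kinase encoded by Mylk, which phosphorylates the regulatory myosin light chain encoded by Myl9 and so starts contraction. Myosin phosphatase reverses that step, and RhoA and its kinases hold the phosphatase back. Calponins (Cnn1, Cnn2) and tropomyosins (Tpm1, Tpm2) bind along the filament, and leiomodin (Lmod1) starts new filaments. Many of these genes are turned on by serum response factor (SRF) with its partners myocardin and the myocardin-related factors, which bind a DNA element called the CArG box.

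The study measured messenger RNA in 4 libraries of primary progenitor cells from subcutaneous tissue of C57BL/6 mice that carry floxed Gnas, the gene of the stimulatory G protein alpha subunit. The 2 mutant libraries (genotype Gnas-/-) came from cells infected with Ad-Cre, an adenovirus that carries Cre recombinase. The 2 control libraries (genotype wild type) came from cells infected with Ad-GFP, and all cells were then kept in osteogenic medium for 7 days. The mutants therefore differ from the controls in the virus as well as in Gnas, and the 2 cannot be told apart. The labels give no age and do not tie a library to a mouse or culture. The p-values therefore rest on a spread between libraries that may be technical. The panel reads each gene through 1 short target whose position is not given in the sources used here, so a value says nothing of isoforms, and values are compared between libraries, not between genes.

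The libraries held 17460018 and 14847959 reads in the mutants and 18455811 and 13483518 reads in the controls. No row was named Gnas, so the genotypes were not checked by the targeted gene. The mutants lay close to each other (Pearson's r = 0.981 across tested genes, which are not independent replicates), and the controls further apart (r = 0.916). Xist, which silences an X chromosome in female cells, stood at 395 and 419 RPM in the mutants, against 165 RPM in control 1 and 0 in control 2. Ddx3y, a gene of the Y chromosome, had reads in every library. It stood at 26.9 and 12.5 RPM in the mutants, against 61.4 RPM in control 1 and 124 RPM in control 2. The part of sex in the values below was not tested. Control 2 also held most macrophage signal: 14 marker genes summed to 33.7 and 20.5 RPM in the mutants, against 50.6 RPM in control 1 and 974 RPM in control 2. Lyz2 alone carried most of each sum, at 20.8 and 10.4 RPM in the mutants, against 33.9 RPM in control 1 and 822 RPM in control 2. The contractile genes are therefore set against each control as well as against both.

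The promoters shown here are those of 4 of the contractile genes whose values are described below. They were chosen because they hold an SRF-type element or, for Mylk, because the gene passed the test. They are the 250 bases before the start of transcription on the sense strand, 5′ to 3′, from RefSeq (GRCm38.p6), with CArG boxes, CArG-like boxes and MCAT elements in capitals. They lie at chr19:34255374-34255623 (Acta2, minus strand), chr2:156775214-156775463 (Myl9, plus strand), chr10:79988350-79988599 (Cnn2, plus strand) and chr16:34784700-34784949 (Mylk, plus strand). The Mylk window lies wholly within the annotated span of its gene given below, and those of Acta2, Myl9 and Cnn2 overlap theirs in part. The RefSeq starts thus differ from the starts of these gene spans.
Acta2: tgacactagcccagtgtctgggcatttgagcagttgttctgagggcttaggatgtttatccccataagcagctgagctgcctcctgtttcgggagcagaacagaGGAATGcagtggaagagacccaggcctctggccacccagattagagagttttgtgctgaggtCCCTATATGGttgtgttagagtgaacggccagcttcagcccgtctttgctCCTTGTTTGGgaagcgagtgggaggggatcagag
Myl9: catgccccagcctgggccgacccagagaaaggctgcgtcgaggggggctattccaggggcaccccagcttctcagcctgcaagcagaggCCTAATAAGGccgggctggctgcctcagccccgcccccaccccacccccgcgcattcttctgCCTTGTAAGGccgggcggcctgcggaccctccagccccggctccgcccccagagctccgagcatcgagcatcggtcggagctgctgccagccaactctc
Cnn2: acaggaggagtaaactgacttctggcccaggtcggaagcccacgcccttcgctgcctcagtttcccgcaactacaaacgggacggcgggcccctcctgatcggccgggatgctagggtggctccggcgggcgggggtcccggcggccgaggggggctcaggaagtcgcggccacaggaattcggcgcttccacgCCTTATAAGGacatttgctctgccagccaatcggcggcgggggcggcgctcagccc
Mylk: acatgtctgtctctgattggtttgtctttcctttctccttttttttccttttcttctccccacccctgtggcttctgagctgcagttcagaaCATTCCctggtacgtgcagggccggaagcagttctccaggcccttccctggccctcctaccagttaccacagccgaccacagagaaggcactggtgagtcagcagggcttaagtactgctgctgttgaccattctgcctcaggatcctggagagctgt

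A CArG box was taken as CC and GG around 6 letters that are all A or T, and a CArG-like box as the same with 1 of these letters C or G. Promoters of 8 measured genes were in the RefSeq table. Myl9 held CCTAATAAGG and Cnn2 held CCTTATAAGG, so 2 of 8 had a CArG box, against 1.47% of 32851 promoter windows. Acta2 held the CArG-like boxes CCCTATATGG and CCTTGTTTGG and Myl9 held CCTTGTAAGG, so 2 of 8 had one, against 7.24% of all windows. MCAT elements, which TEAD factors bind, were searched as CATTCC on both strands. They stood in the windows of Acta2, Mylk, Tpm1 and Lmod1, 4 of 8, against 12.6% of all windows. No element overlapped another, and a match describes letters, not a bound site.

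Across the 9 measured genes, the kinase gene Mylk rose in the Gnas-/- libraries, and the 8 others did not pass the test. The test was limma on log2(RPM + 1), with Benjamini-Hochberg adjustment over all 11638 tested genes and a threshold of 0.05. By that rule 1.73% of tested genes were higher and 0.576% lower in the mutants. Of the 9 genes 1 was called higher and 0 lower, against 2.3% of all tested genes in either direction. At an unadjusted p below 0.05 there were 2, against 17.9% of all tested genes. With edgeR 0 of the 9 were called (1 at an unadjusted p below 0.05), against 0.567% of all tested genes called higher and 0.232% lower. With DESeq2 Mylk was called, against 5.14% higher and 4.24% lower. The median log2 fold change was 0.53 over the 9 genes, against 0.08 over all tested genes. Of the 9 fold changes 8 were positive, with Tpm2 at 0.01, and the share of positive ones over all tested genes was not counted. Together the 9 amplicons took 0.763% and 1.07% of all reads in the mutants, against 0.339% in control 1 and 1.03% in control 2.

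**Figure D1:**
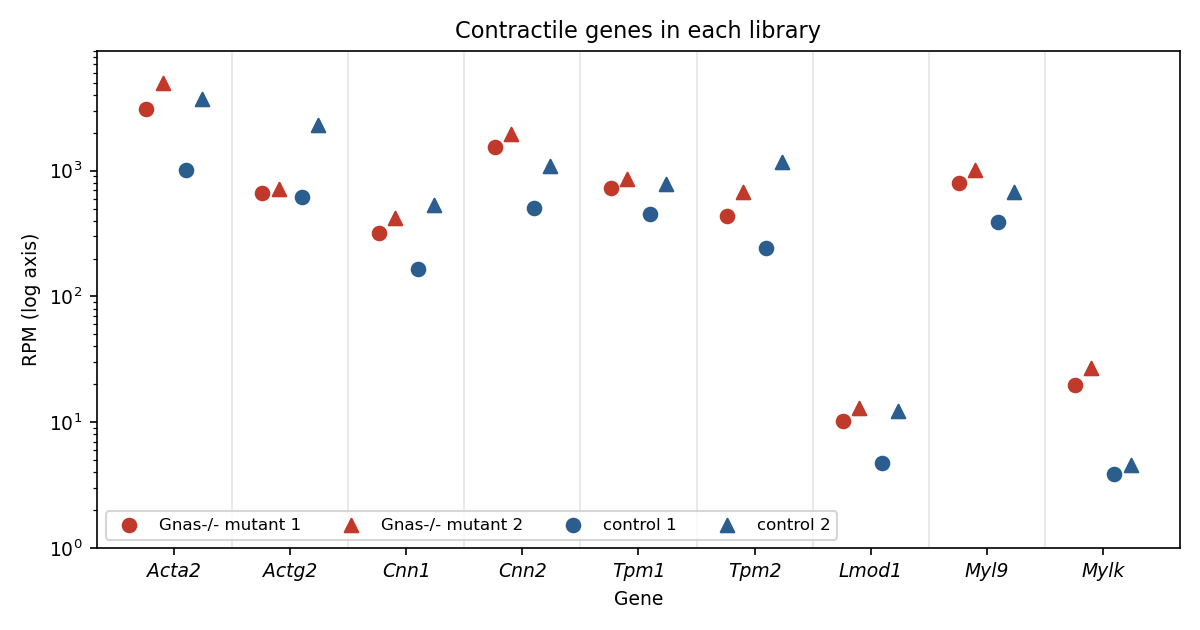
RPM of the 9 measured contractile genes (log axis) in each library, with mutants in red left of controls in blue, circles for replicate 1 and triangles for replicate 2. Control 1 is the lowest library for all 9 genes, control 2 is the highest for Actg2, Cnn1 and Tpm2, and both mutants lie above both controls for Cnn2, Myl9 and Mylk.

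The 2 controls differed from each other by more than the 2 mutants did in every contractile gene measured except Mylk. Control 1 was the lowest of the 4 libraries for 9 of 9 genes, as it was for 23.8% of all tested genes. Both mutants lay above control 1 for 9 of 9 genes (42.7% of all tested genes), above control 2 for 3 (50.4%) and below control 2 for 3 (33.8%). Control 2 lay above control 1 for 9 of 9 genes (42% of all tested genes) and by over 2-fold for 6 (9.98%). The median ratio of control 2 to control 1 was 2.58 over the 9 genes, against 0.913 over 11416 tested genes with reads in every library. Mutant 2 also lay above mutant 1 for 9 of 9 genes (49.3% of all tested genes), by a median of 1.28-fold. The library with the higher contractile level in the control group was the one with the 974 RPM of macrophage markers, and its part in these values was not tested. In RNA from a whole culture, more contractile cells and more contractile RNA per cell cannot be told apart.

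Mylk, on chromosome 16 at 34745210 to 35002420 (plus strand, GENCODE annotation of GRCm38, position of the gene), stood at 19.8 and 27.1 RPM in the mutants, against 3.85 and 4.60 RPM in the controls. Both mutants were above both controls, and the controls differed by 1.20-fold. Read counts were 346 and 402 in the mutants, against 71 and 62 in the controls. The exact 95% Poisson intervals, which cover counting error only, were 17.78 to 22.02 and 24.49 to 29.85 RPM in the mutants, against 3.005 to 4.852 and 3.525 to 5.894 RPM in the controls. The log2 fold change was 2.21 (SE 0.32, adjusted p = 0.0428 by limma), a 5.55-fold ratio of means. Against control 1 alone the ratio was 6.09-fold, and against control 2 alone 5.10-fold. The call ended when every gene was tested unfiltered (adjusted p = 0.103), with median-of-ratios scaling (0.0506), with edgeR (0.0612) and without mutant 1 (0.597) or mutant 2 (0.694), over a range of 6.97e-06 to 0.694 across 15 alternatives, and the log2 fold change ranged from 1.61 to 2.43.

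Myl9 is the gene of the light chain that this kinase phosphorylates. It stood at 802 and 1015 RPM in the mutants, against 391 and 680 RPM in the controls. The groups did not overlap, and the log2 fold change was 0.81 (SE 0.35, adjusted p = 0.312 by limma). Its ratio was 2.33-fold against control 1 and 1.34-fold against control 2. Myl9 lies on chromosome 2 at 156775420 to 156781658 (plus strand).

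Cnn2, a calponin found in many non-muscle cells as well as in muscle, stood at 1551 and 1969 RPM in the mutants, against 503 and 1084 RPM in the controls. Both mutants were again above both controls, and the log2 fold change was 1.24 (SE 0.43, adjusted p = 0.236 by limma). The ratio was 3.50-fold against control 1 and 1.62-fold against control 2. Cnn1, the calponin typical of differentiated smooth muscle, stood at 318 and 418 RPM in the mutants, against 166 and 532 RPM in the controls. Here the mutants lay between the controls. The log2 fold change was 0.29 (SE 0.57, adjusted p = 0.827 by limma), and it was 1.13 against control 1 and -0.54 against control 2. Cnn2 lies on chromosome 10 at 79988584 to 79996062 (plus strand) and Cnn1 on chromosome 9 at 22099216 to 22109630 (plus strand). Non-overlap with the mutants higher held for 3 of the 9 genes (Mylk, Myl9 and Cnn2) and for 30.6% of all tested genes, and with the mutants lower for 0 of 9 and 21.1%.

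The 2 smooth muscle actin genes had fold changes of opposite sign, and neither passed. Acta2, the usual marker of myofibroblasts, stood at 3103 and 4969 RPM in the mutants, against 1009 and 3720 RPM in the controls. Control 2 lay between the mutants, so the groups overlapped. The log2 fold change was 1.02 (SE 0.69, 95% interval -0.73 to 2.77, adjusted p = 0.502 by limma), and it was 1.96 against control 1 and 0.08 against control 2. Actg2, the actin of gut and other visceral muscle, stood at 659 and 716 RPM in the mutants, against 619 and 2316 RPM in the controls. The mutants sat just above control 1 and far below control 2. The log2 fold change was -0.80 (SE 0.63, 95% interval -2.41 to 0.81, adjusted p = 0.566 by limma), and it was 0.15 against control 1 and -1.75 against control 2. Acta2 lies on chromosome 19 at 34241090 to 34255590 (minus strand) and Actg2 on chromosome 6 at 83512905 to 83536265 (minus strand).

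Muscle actins have near-identical coding sequences, so reads of their targets could be split between rows. The row of the heart actin Actc1 held at most 0.337 RPM in any library. The skeletal actin Acta1 stood at 25.4 and 53.9 RPM in the mutants, against 6.07 and 88.9 RPM in the controls. The cytoplasmic actin Actb stood at 13620 and 19975 RPM in the mutants, against 7195 and 24721 RPM in the controls. For both, as for Acta2 and Actg2, control 1 was the lowest library, and 0 of the 4 tested actin genes passed (limma, adjusted p = 0.837 for Acta1 and 0.873 for Actb; 0 of 4 also at an unadjusted p below 0.05).

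The tropomyosins, which line the filament groove, were spread most widely between the controls for Tpm2. Tpm2 stood at 435 and 675 RPM in the mutants, against 244 and 1182 RPM in the controls, a 4.84-fold difference within the control group. Its log2 fold change was 0.01 (SE 0.76, 95% interval -1.92 to 1.94, adjusted p = 0.997 by limma), 1.15 against control 1 and -1.12 against control 2. Tpm1 stood at 732 and 857 RPM in the mutants, against 450 and 777 RPM in the controls. Control 2 lay between the mutants, and the log2 fold change was 0.42 (SE 0.33, adjusted p = 0.567 by limma). Lmod1, the leiomodin of smooth muscle, stood at 10.1 and 13.0 RPM in the mutants, against 4.71 and 12.2 RPM in the controls. Control 2 again lay between the mutants, and the log2 fold change was 0.53 (SE 0.48, adjusted p = 0.621 by limma). Tpm2 lies on chromosome 4 at 43514711 to 43523765 (minus strand), Tpm1 on chromosome 9 at 67022590 to 67049406 (minus strand) and Lmod1 on chromosome 1 at 135324807 to 135368065 (plus strand).

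Set against each control by itself, the same mutants gave different calls. Against control 1 alone, 8 of the 9 genes were called higher and 0 lower (limma, against 10.4% and 7.51% of 11379 tested genes), and their median log2 fold change was 1.15. Actg2 was the exception (log2 fold change 0.15, adjusted p = 0.669 by limma). Against control 2 alone, 1 gene was called higher (Mylk) and 2 lower, Actg2 (adjusted p = 0.00104) and Tpm2 (0.0238, both by limma), against 15.2% and 7.23% of 11405 tested genes. The median was then 0.03. These comparisons share the mutant libraries, and the lone control was assumed to vary like the mutants, although the 2 controls differed by more than the mutants did, so these p-values can be too small. Mylk was called in both, and both mutants lay below control 2 for Actg2, Cnn1 and Tpm2.

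**Figure D2:**
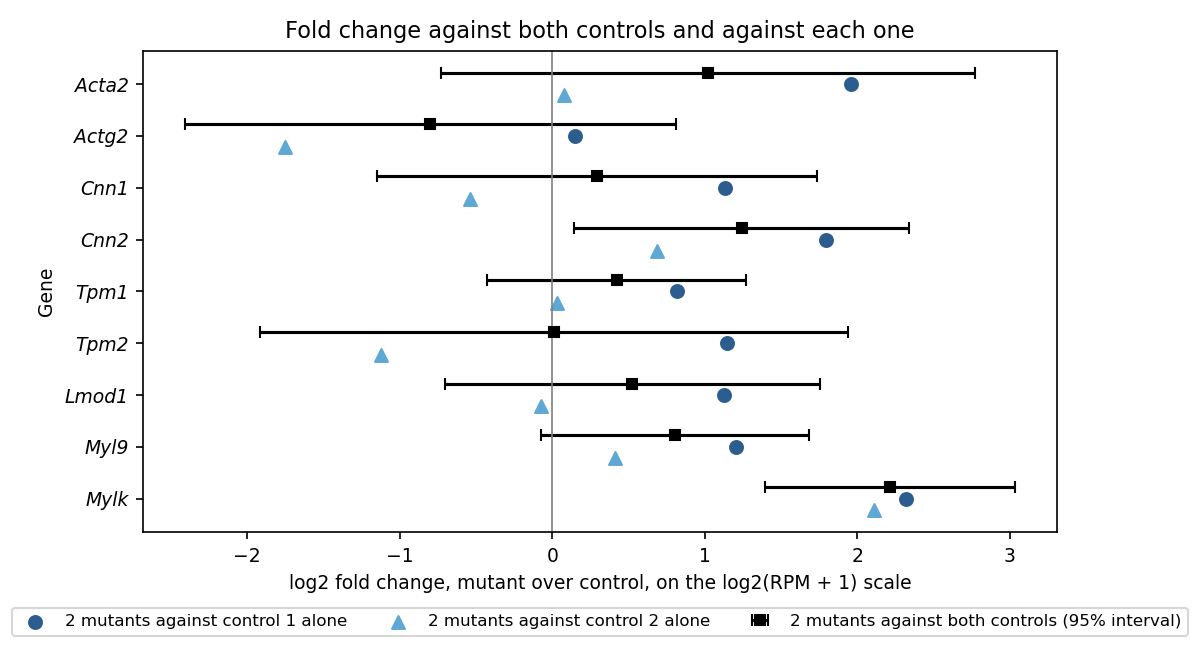
Log2 fold change of the mutants over the controls for each measured gene, with squares and 95% intervals for both controls together, circles for control 1 alone and triangles for control 2 alone. Actg2, Cnn1, Tpm2 and Lmod1 fall on opposite sides of 0 against the 2 controls, while Mylk lies at 2.32 against control 1 and 2.11 against control 2.

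Ratios between amplicons of the same library were taken to describe which contractile genes differed in their balance. A ratio of 2 amplicons is no ratio of transcripts, and only its difference between libraries is read. Of 36 pairs, 25 had log2 ratios on the log2(RPM + 1) scale that did not overlap between mutants and controls, as 52.9% of all pairs of tested genes did. With plain RPM ratios, added after seeing the data, 26 pairs did not overlap, as 51.8% of all pairs of tested genes with reads in every library did. The 3 pairs that differed between the scales were Acta2 with Lmod1, Cnn1 with Lmod1, and Lmod1 with Myl9. No test was made on these pairs, which share genes, and those named were chosen after their values were seen. On both scales all 8 pairs with Mylk and all 8 pairs with Actg2 did not overlap, against 4 of 8 for Tpm1 and for Tpm2. The plain ratios of 4 pairs follow.

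The ratio of Acta2 to Actg2 was 4.71 and 6.94 in the mutants, against 1.63 and 1.61 in the controls. The controls thus differed 3.69-fold in Acta2 and 3.74-fold in Actg2 but kept nearly the same ratio, and both mutants lay above it. The ratio of Cnn1 to Cnn2 was 0.205 and 0.212 in the mutants, against 0.330 and 0.491 in the controls, so the smooth muscle calponin was lower relative to the broadly expressed one in both mutants. The ratio of Actg2 to Mylk was 33.3 and 26.5 in the mutants, against 161 and 504 in the controls. By contrast, the ratio of Tpm1 to Tpm2 was 1.68 and 1.27 in the mutants, against 1.84 and 0.657 in the controls, with the mutants between the controls.

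**Figure D3:**
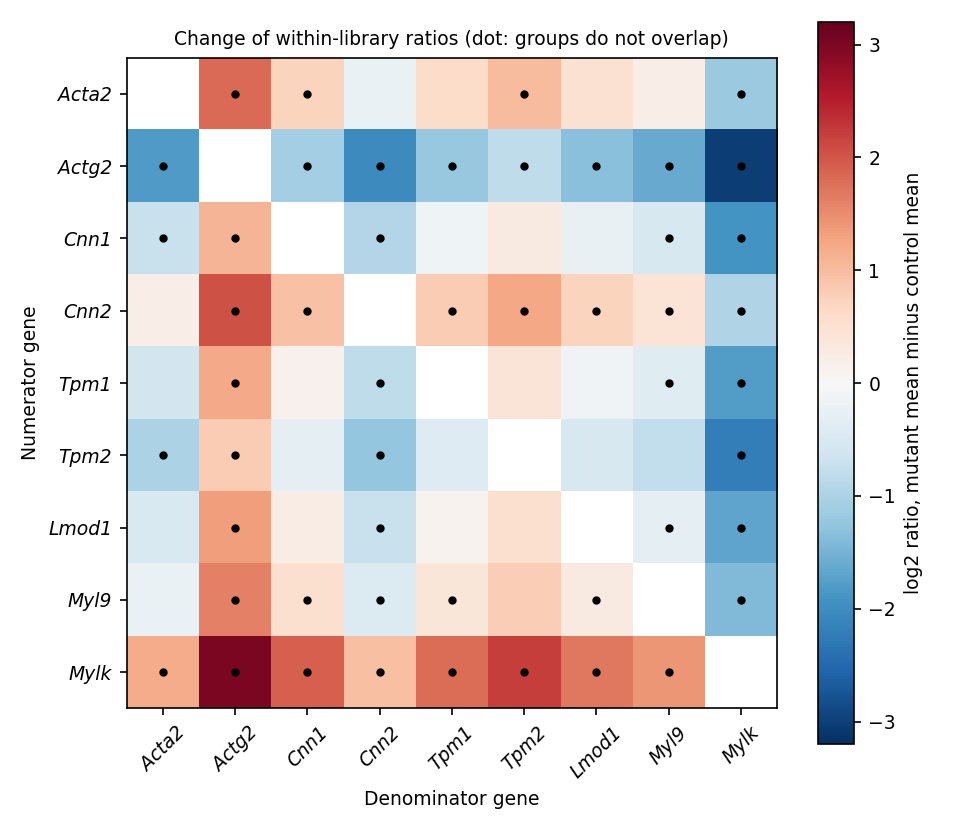
Change of the log2 ratio of each row gene to each column gene within a library, mutant mean minus control mean, on the log2(RPM + 1) scale, with a dot where the 2 mutants and the 2 controls do not overlap on that scale. Each cell is the difference between the log2 fold changes of its 2 genes. The Mylk row is therefore red throughout and the Actg2 row blue throughout, as their fold changes are the highest (2.21) and the lowest (-0.80). The change is -3.01 for Actg2 over Mylk and 1.82 for Acta2 over Actg2.

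Of 35 listed partners in the contractile apparatus 31 were in the table and 30 were tested. By limma 2 rose (1.73% of all tested genes), 0 fell (0.576%) and 28 did not pass, and their median log2 fold change was 0.51. Against control 1 alone and control 2 alone, the log2 fold changes of the 2 that rose were 2.71 and 3.42 for Myh10 and 1.46 and 1.38 for Fhl2. For Myh11 they were 0.44 and -0.27. Both mutants lay above both controls for 17 of the 30 (30.6% of all tested genes) and below them for 0 (21.1%), and control 1 was the lowest library for 18 (23.8%). Myh10, the heavy chain of non-muscle myosin IIB, stood at 858 and 777 RPM in the mutants, against 124 and 75.5 RPM in the controls. It rose 8.20-fold (log2 fold change 3.06, SE 0.30, adjusted p = 0.0224 by limma), and its call ended only without either mutant among the 15 alternatives. Fhl2, a LIM-domain partner of SRF, stood at 241 and 217 RPM in the mutants, against 82.3 and 87.4 RPM in the controls. It rose with a log2 fold change of 1.42 (adjusted p = 0.0387 by limma), and the call ended with no filter (adjusted p = 0.0674), no trend (0.0692), median-of-ratios scaling (0.0516), edgeR (0.0715) or without either mutant. Myh11, the myosin heavy chain that marks smooth muscle, stood at 44.0 and 58.6 RPM in the mutants, against 37.3 and 61.6 RPM in the controls (adjusted p = 0.92 by limma).

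Myosin phosphatase, which undoes the step catalysed by the Mylk kinase, was looked at after the values were seen. Its catalytic subunit gene Ppp1cb stood at 285 and 285 RPM in the mutants, against 268 and 295 RPM in the controls, which overlapped (log2 fold change 0.02, adjusted p = 0.973 by limma). Its targeting subunit gene Ppp1r12b stood at 119 and 122 RPM in the mutants, against 56.5 and 45.9 RPM in the controls (log2 fold change 1.23, adjusted p = 0.0644 by limma). The related Ppp1r12a stood at 110 and 103 RPM in the mutants, against 55.6 and 68.6 RPM in the controls (adjusted p = 0.168 by limma). Ppp1r14a, the gene of an inhibitor of the phosphatase, stood at 14.6 and 16.2 RPM in the mutants, against 0.271 and 7.05 RPM in the controls (adjusted p = 0.261 by limma). For these last 3 genes both mutants lay above both controls, as for 30.6% of all tested genes, and limma called none of them. DESeq2 called Ppp1r12b (adjusted p = 0.000551), against 5.14% of all tested genes called higher. Against control 1 alone and control 2 alone, the log2 fold changes of Ppp1r12b were 1.08 and 1.38. They were 0.92 and 0.62 for Ppp1r12a, and 3.69 and 1.02 for Ppp1r14a, which had 5 reads in control 1.

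Of 16 tested genes that carry RhoA and calcium signals to myosin, 0 passed by limma (2.3% of all tested genes) and 3 had an unadjusted p below 0.05 (17.9%), and their median log2 fold change was 0.32. The 4 with the smallest p lay on both sides. Against control 1 alone and control 2 alone, the log2 fold changes were 1.12 and 1.05 for Arhgef17 and 1.17 and 0.67 for Rhob. They were -0.86 and -0.93 for Rhoc and -0.49 and -0.45 for Camk2d. Arhgef17, an activator of RhoA, stood at 232 and 307 RPM in the mutants, against 122 and 129 RPM in the controls (adjusted p = 0.0963 by limma), and Rhob at 593 and 711 RPM in the mutants, against 287 and 408 RPM in the controls (0.18). Rhoc stood at 113 and 119 RPM in the mutants, against 211 and 222 RPM in the controls (adjusted p = 0.102 by limma), and the calmodulin kinase gene Camk2d at 86.9 and 97.3 RPM in the mutants, against 129 and 126 RPM in the controls (0.305). DESeq2 called Arhgef17 (adjusted p = 0.0134) and Rhoc (0.00353), against 5.14% of all tested genes called higher and 4.24% lower.

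Of 13 tested SRF partners and other regulators of contractile genes, 0 rose and 1 fell by limma (1.73% and 0.576% of all tested genes), and their median log2 fold change was 0.45. DESeq2 called 1 higher, against 5.14% of all tested genes. Klf4 and Tead3, picked with their values known, differed in how far they depended on the control. The log2 fold change of Klf4 was -1.58 against control 1 alone and 1.04 against control 2 alone. That of Tead3 was 1.10 and 0.88. The gene that fell by limma was Prdm6. Prdm6, the gene of a nuclear repressor found in smooth muscle, stood at 0.286 and 0.539 RPM in the mutants, against 12.6 and 14.2 RPM in the controls (log2 fold change -3.35, adjusted p = 0.0229 by limma). It passed the filter on low values only through the controls, so that it could be tested only because it was high there. Its log2 fold change depended on the pseudocount, at -3.94 with 0.5 and -1.76 with 5, and was -5.09 with edgeR. The call ended with no filter (adjusted p = 0.0711) and without either mutant, and without either control the gene did not pass the filter. Myocd, the gene of myocardin, was picked with its values known. It stood at 4.07 and 9.43 RPM in the mutants, against 1.36 and 2.45 RPM in the controls, with no overlap (log2 fold change 1.35, adjusted p = 0.247 by limma). Srf itself stood at 48.1 and 63.6 RPM in the mutants, against 29.6 and 54.9 RPM in the controls, which overlapped.

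Of 20 tested myofibroblast matrix and signalling genes, 0 rose and 1 fell by limma (1.73% and 0.576% of all tested genes), and their median log2 fold change was 0.79. Both mutants lay above both controls for 11 of the 20 (30.6% of all tested genes) and below them for 3 (21.1%). DESeq2 called 4 higher and 2 lower, against 5.14% and 4.24% of all tested genes. The replicate block gave 2 higher and 1 lower, against 301 and 123 of all tested genes. Some fold changes in this list depended on the control. Tnc, picked with its values known, had a log2 fold change of 0.86 against control 1 alone and -1.22 against control 2 alone. Tgfb1, the gene of the growth factor best known for inducing myofibroblasts, stood at 144 and 135 RPM in the mutants, against 359 and 410 RPM in the controls (log2 fold change -1.45, SE 0.20, adjusted p = 0.0388 by limma). Against control 1 alone and control 2 alone its log2 fold change was -1.36 and -1.55. Its call ended with no filter (adjusted p = 0.0711), no trend (0.0681), edgeR (0.0650) or without either mutant. The related Tgfb2 and Tgfb3, named after their values were seen, lay the other way. Tgfb2 stood at 67.7 and 50.9 RPM in the mutants, against 11.6 and 41.6 RPM in the controls (adjusted p = 0.321 by limma). Tgfb3 stood at 402 and 422 RPM in the mutants, against 90.6 and 253 RPM in the controls (adjusted p = 0.233 by limma). Both mutants lay above both controls for each, as for 30.6% of all tested genes. The collagen gene Col1a1 stood at 16666 and 21009 RPM in the mutants, against 5332 and 9875 RPM in the controls (adjusted p = 0.292 by limma), and was named after its values were seen.

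**Figure D4:**
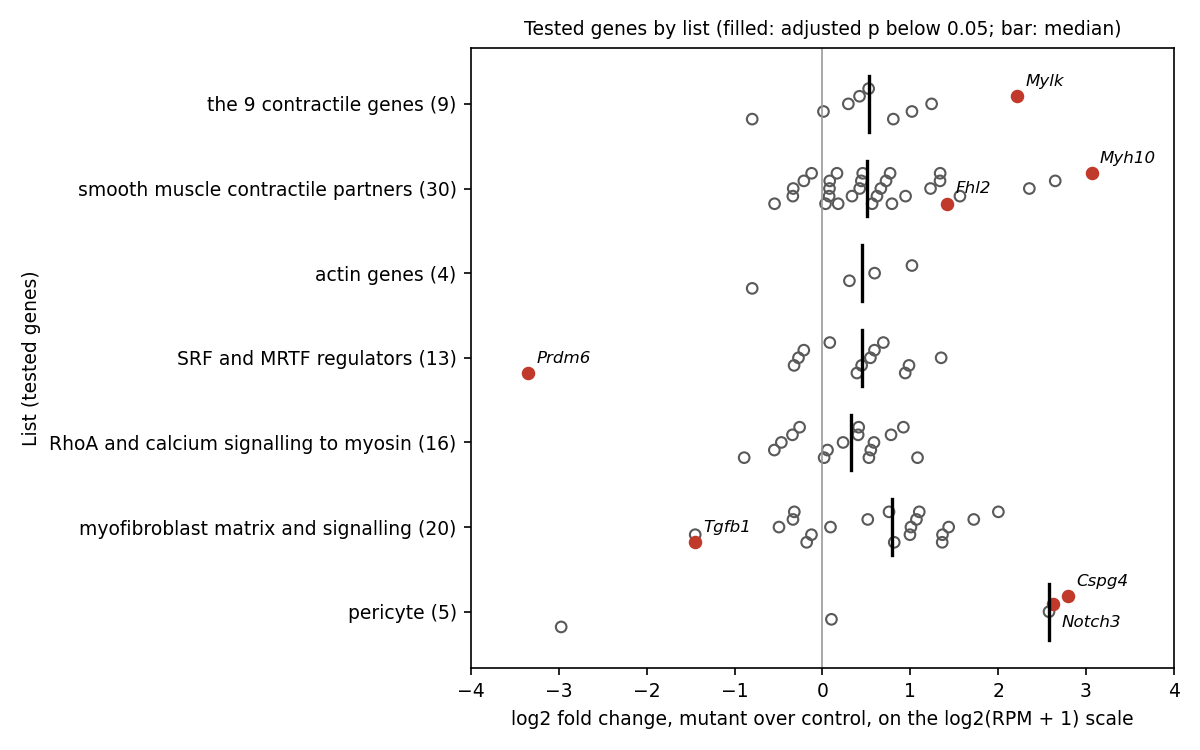
Log2 fold change of the mutants over the controls for the tested genes of 7 groups (the contractile genes, 5 related lists and pericyte markers), with the number of tested genes in brackets, filled points for adjusted p below 0.05 by limma and a bar at the median. The median is 0.32 for the RhoA and calcium list, 0.79 for the myofibroblast list and 2.58 for the 5 tested of 9 pericyte markers. No other cell type list is drawn. The medians of those left out were 0.41 for smooth muscle, 0.95 for stromal progenitor and 0.23 for skeletal muscle markers. They were 0.14 for endothelial and -2.51 for macrophage markers, and no keratinocyte marker was tested.

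Markers of other cells that share contractile genes were read beside these values. Of 10 markers of stromal progenitors, 8 were measured and tested, among them Pdgfra, Thy1 and Col1a1. They summed to 30703 and 33693 RPM in the mutants, against 13304 and 16168 RPM in the controls. Col1a1 and Col1a2 carried most of each sum. Col1a1 stood at 16666 and 21009 RPM in the mutants, against 5332 and 9875 RPM in the controls. Col1a2 stood at 7507 and 7512 RPM in the mutants, against 3843 and 3184 RPM in the controls. Both mutants lay above both controls for 6 of the 8 (30.6% of all tested genes), while Pdgfrb and Ly6a overlapped. By limma 1 of the 8 rose (1.73% of all tested genes). This was Dpt, the gene of the matrix protein dermatopontin, at 666 and 430 RPM in the mutants, against 19.0 and 58.1 RPM in the controls (log2 fold change 3.96, adjusted p = 0.0389 by limma). That call ended with no filter (adjusted p = 0.0711), no trend (0.0542), median-of-ratios scaling (0.0516), edgeR (0.0848) or without either mutant. The 6 smooth muscle markers, Acta2 and Myh11 among them, summed to 3624 and 5722 RPM in the mutants, against 1324 and 4547 RPM in the controls. Acta2 alone carried most of each sum, at 3103 and 4969 RPM in the mutants, against 1009 and 3720 RPM in the controls. By limma 0 of 6 passed (2.3% of all tested genes), and 0 had an unadjusted p below 0.05 (17.9%). Of 9 pericyte markers 5 were tested and 2 rose by limma, against 1.73% of all tested genes. Cspg4, the NG2 proteoglycan gene, stood at 111 and 157 RPM in the mutants, against 15.06 and 21.95 RPM in the controls (log2 fold change 2.80, adjusted p = 0.0252 by limma; 0.0515 with edgeR). Notch3 stood at 80.2 and 104 RPM in the mutants, against 17.8 and 10.9 RPM in the controls (log2 fold change 2.63, adjusted p = 0.0325 by limma; 0.0512 with edgeR and 0.0602 with no filter). Both calls ended without either mutant, when 0 of all tested genes were called. A further tested marker, Mcam, stood at 105 and 135 RPM in the mutants, against 8.45 and 41.8 RPM in the controls (adjusted p = 0.164 by limma). The markers with lower values in the mutants were low or uneven. Abcc9 stood at 0 and 0.067 RPM in the mutants, against 6.23 and 0.890 RPM in the controls, and Kcnj8 at 0.115 and 0.067 RPM in the mutants, against 0.867 and 0.593 RPM in the controls. Ndufa4l2 stood at 6.70 and 9.77 RPM in the mutants, against 9.16 and 504 RPM in the controls, which overlapped. The defining pericyte marker Rgs5 was at 0.974 and 0.876 RPM in the mutants, against 0 and 0.297 RPM in the controls, and Higd1b was at 0 in every library. The 9 pericyte markers summed to 902 and 971 RPM in the mutants, against 881 and 935 RPM in the controls. Single genes carried much of these sums, with Pdgfrb at 598 and 564 RPM in the mutants, against 824 and 355 RPM in the controls, and Ndufa4l2 at 504 RPM in control 2. The part of pericyte markers in the contractile values was not tested. Of 9 skeletal muscle markers, Myod1, Pax7 and Ckm were at 0 in every library. The list summed to 43.1 and 116 RPM in the mutants, against 58.0 and 115 RPM in the controls, mostly from Acta1 and Des. Endothelial markers summed to 18.3 and 36.7 RPM in the mutants, against 10.3 and 85.6 RPM in the controls, and keratinocyte markers to 0.459 and 1.08 RPM in the mutants, against 1.25 and 0.741 RPM in the controls.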

How the data were processed

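Messenger RNA was measured in 2 mutant and 2 control libraries with an Ion AmpliSeq Transcriptome panel for mouse on an Ion Chef, per the labels' protocols. The authors deposited RPM values, read numbers divided by each library's total so that all columns have equal sums; the sources used here name no aligner, counter, build or filter. Symbols were taken from amplicon names, since 27 gene names differed from them. The step between low values gave whole reads for 100% of non-zero values within 0.01 read. Where a library had no read, up to 3 reads remain possible (0.172 and 0.202 RPM in the mutants, 0.163 and 0.222 RPM in the controls); without molecular identifiers, reads are not independent molecules.

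Genes that reached 1 RPM in 2 or more libraries were tested with limma 3.58.1 (R 4.3.3, two-sided, trend) on log2(RPM + 1), a scale that understates changes of low genes. An exact permutation test of 2 against 2 libraries cannot go below p = 0.333. edgeR 4.0.16 and DESeq2 1.42.0 on whole reads, other pseudocounts, filters and scalings, a replicate block and each library left out were alternatives. The genes and lists were chosen with earlier results of these data known, and no list was tested as a set. All 10 genes were to be named, with the list members that passed and otherwise up to 4 with the smallest p; others are marked. Gene positions come from GENCODE M21. Python 3.11.15 drew the figures.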

Additional observations from a re-analysis of the deposited data

How the results depend on the processing

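Over 9 contractile genes and 15 alternatives, 111 of 135 log2 fold changes kept their direction and side of the threshold. Another 5 lost a call (all Mylk), 8 gained one in the same direction, and 11 reversed direction, whether called or not. Mylk was called in 10 of the 15. The number of genes called (268 in all, 201 higher and 67 lower) was 74 (56 and 18) with no filter, 93 (66 and 27) with edgeR and 1091 (598 and 493) with DESeq2. Of the 9 contractile genes 0 were called with no filter, median-of-ratios scaling or edgeR (2, 1 and 1 at an unadjusted p below 0.05). Leaving out 1 library gave 0 to 2556 calls (0 to 1731 higher, 0 to 854 lower) and 0 to 8 of the contractile genes, whose median log2 fold change ran from 0.0278 without control 1 to 1.15 without control 2. Without mutant 1 or mutant 2, limma called 0 genes (689 and 670 at an unadjusted p below 0.05), and the cause was not tested. Quantile normalization moved the median of all genes by -0.11.

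The cause of the reversed log2 fold changes was not tested. Tpm2 was at -0.0636 with TMM, -0.0781 with median-of-ratios, -0.48 with edgeR, -0.50 with DESeq2, -1.12 without control 1 and -0.31 without mutant 2. Cnn1 was at -0.0284 with edgeR, -0.0479 with DESeq2 and -0.54 without control 1. Without control 1, Lmod1 was at -0.0762, Acta1 at -1.24, Actb at -0.58, Myh11 at -0.27 and Actg2 at -1.75. Without control 2 Actg2 was at 0.15, Cnn1 at 1.13, Lmod1 at 1.13, Acta1 at 2.43, Actb at 1.20 and Myh11 at 0.44. With edgeR Acta1 was at -0.38, Actb at -0.0336 and Myh11 at -0.035, and with DESeq2 Acta1 was at -0.41, Actb at -0.0532 and Myh11 at -0.0515. Myh11 was at -0.0053 with median-of-ratios and -0.12 without mutant 2.

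Mutant and control libraries share the numbers 1 and 2, but nothing says that a number marks a shared mouse or day, and with 2 pairs the correlation of same-numbered deviations (0.164 across genes) does not establish pairing. With the replicate block 424 genes were called, 123 of them lower, and of the contractile genes Mylk alone, as without it.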
